A study of Mus musculus with 23 samples.

Results

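A set of 8 genes of arginine and itaconate metabolism that macrophages are known to use were followed through wound repair in diabetic mice: Nos2, Arg1, Arg2, Slc7a2, Ass1, Odc1, Acod1 and Gch1. They were picked by symbol, all 8 were found among the 56379 genes of the count table, and all 8 passed the filter on low counts that left 23083 genes for testing. The tissue was whole dorsal skin or wound from HTNF ki/ki, Lepr db/db mice aged 8 to 12 weeks, a genotype shared by every group. Each animal received 4 full-thickness punch wounds of 6 mm, and punches of 8 mm centred on the wounds were taken for RNA sequencing. Control mice received the vehicle, PBS, and treated mice received adalimumab, an antibody against human TNF, at 20 mg per kg under the skin on days 0, 3, 7 and 10. Every mouse was also given the painkiller tramadol. The 23 libraries form 8 groups: control and adalimumab on day 0 (skin before healing), 3, 7 and 10, with 3 libraries in each except adalimumab day 10, which has 2. The labels do not state whether day 0 skin preceded the first injection.

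L-arginine is the shared substrate of competing enzymes. Inducible nitric oxide synthase, the product of Nos2, turns it into nitric oxide and citrulline in macrophages activated by microbial products and inflammatory cytokines, and needs tetrahydrobiopterin, whose synthesis begins with GTP cyclohydrolase (Gch1). Arginase 1 in the cytosol and arginase 2 in mitochondria instead split arginine into urea and ornithine, from which ornithine decarboxylase (Odc1) starts polyamine synthesis and other enzymes lead to proline, an amino acid abundant in collagen. Slc7a2 encodes a cationic amino acid transporter that brings arginine into the cell, and argininosuccinate synthase (Ass1) rebuilds arginine from citrulline. Acod1 encodes the mitochondrial enzyme that makes itaconate from cis-aconitate, a metabolite of inflammatory macrophages that slows succinate dehydrogenase and can release the antioxidant factor Nrf2. None of these genes is restricted to macrophages: keratinocytes, fibroblasts and neutrophils can express some of them.

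Promoter sequences of RefSeq (build GRCm38.p6) were matched for 4 of the 8 genes, Ass1, Odc1, Gch1 and Acod1. The stretches upstream of Acod1 and Gch1 are shown because Acod1 rose in every comparison of wound with skin and Gch1 varied with Nos2 among wounds. Capitals in Acod1 (chr14:103046762-103046991, plus strand, 230 bases) mark a TATAAA match at position -28 from the gene start. Capitals in Gch1 (chr14:47189414-47189663, minus strand, 250 bases) mark a TATAAA match on the opposite strand at -188 and a match to the NF-kB consensus, named kB, at -10.
Acod1: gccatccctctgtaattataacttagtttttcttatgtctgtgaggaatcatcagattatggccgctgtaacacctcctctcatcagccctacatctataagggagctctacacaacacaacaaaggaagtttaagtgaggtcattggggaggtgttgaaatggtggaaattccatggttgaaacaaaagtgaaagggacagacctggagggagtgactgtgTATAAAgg
Gch1: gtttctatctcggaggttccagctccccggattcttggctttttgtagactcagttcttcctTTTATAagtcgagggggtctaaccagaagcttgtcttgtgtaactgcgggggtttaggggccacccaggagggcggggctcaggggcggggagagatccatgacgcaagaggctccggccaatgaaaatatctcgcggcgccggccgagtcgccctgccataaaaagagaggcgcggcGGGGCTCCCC
Both strands of the 250 bases before each start were searched for kB, STAT6 and ISRE core by name, and for GAS (TTCNNNGAA), C/EBP (TTGCNNAA), AP-1 (TGANTCA), the E-box (CACGTG) and TATAAA. Over 32851 RefSeq promoters, 12.4% held TATAAA, 7.25% kB and 6.02% the E-box. Of the 4 matched genes, Ass1 held an E-box at -36 and Odc1 held none of the motifs. GAS and STAT6 overlap in their outer letters and were found in none of the 4, against 7.02% and 5.85% of all promoters, and the same held for C/EBP (9.56%), AP-1 (6.75%) and ISRE core (2.98%). These matches describe letters in a window and say nothing of binding.

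Total counts per library were 33080930 to 37494760. The 12 libraries of days 0 and 3 held more Xist than Ddx3y, and 10 of the 11 libraries of days 7 and 10 held more Ddx3y than Xist, the exception being adalimumab day 7 replicate 3. Days 0 and 3 share animals by their codes (6 mice), while days 7 and 10 come from 11 other mice in another numbering series. Differences of day 7 or 10 from day 0 or 3 therefore cannot be told apart from sex and series. Macrophages were present in every wound by their markers: the summed level of 12 macrophage genes, in counts scaled to library size (CPM), was 200.2 to 1344 in skin and 1689 to 6890 in wounds, with none of the 12 at 0 in any library. Of 10 neutrophil genes, the sum was 18.0 to 50.3 CPM in skin and 67.6 to 2821 CPM in wounds. Adalimumab day 0 replicates 2 and 3 stand apart by hair follicle transcripts, a sum over 8 genes of up to 16763 CPM against 129.1 to 194.6 in control day 0. In whole tissue, fewer cells of a type and less RNA per cell cannot be told apart.

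Of the 8 genes, 3 were higher in every wound library than in every skin library: Nos2, Arg1 and Acod1. The other 5 overlapped between skin and wound. The share of all tested genes that separate in this way was not counted, here or for groups compared below. Such separations are a description only. Per kilobase of the longest coding transcript, a scale on which genes can be compared, Arg1 had the highest median over the 23 libraries (125.7 CPM per kb), followed by Odc1 (55.5), Ass1 (14.8), Slc7a2 (3.54), Gch1 (3.41), Acod1 (2.13), Nos2 (1.42) and Arg2 (1.05). In this order Slc7a2 and Gch1 are nearly level. The ranges of neighbours overlap, except that the lowest Ass1 (7.57) lies above the highest Slc7a2 (6.08). The order changed with wounding: in control and adalimumab skin Odc1 led Arg1 by median, whereas Arg1 led in each wound group except control day 3, where Odc1 stood at 79.9 and Arg1 at 67.9 CPM per kb.

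**Figure D1:**
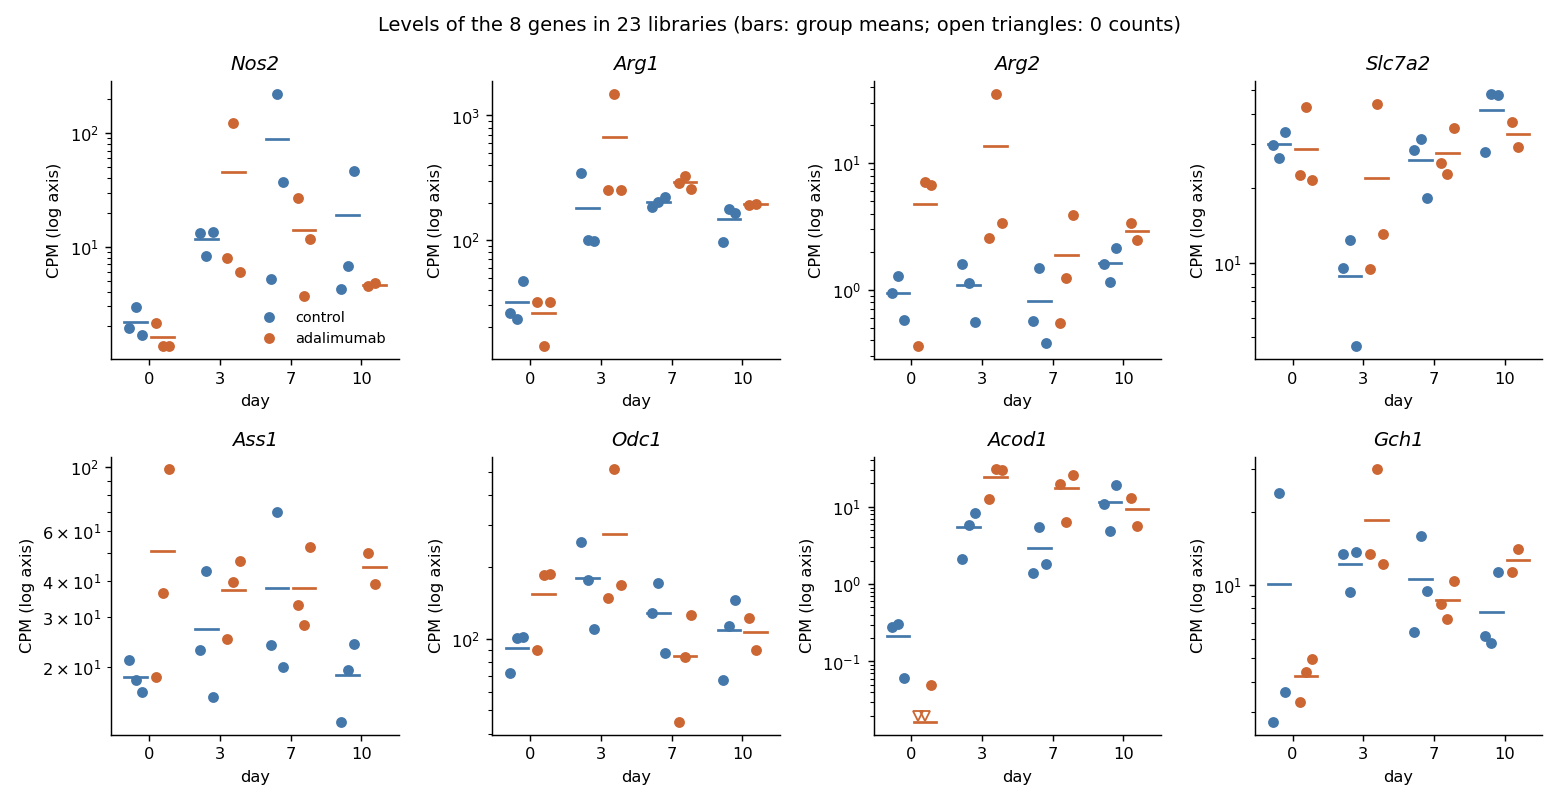
Level of each gene in CPM on a log axis (scales differ between panels) against day, with 1 point per library, control in blue and adalimumab in orange, and bars for group means. Nos2, Arg1 and Acod1 lie higher in all 17 wounds than in all 6 skin libraries, and single libraries such as adalimumab day 3 replicate 2 reach far above their group.

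The question addressed first was how these genes differ between skin and wound in each arm. In control, 34.6% of all tested genes were called on day 3 against day 0, 33.4% on day 7 and 34.4% on day 10, by edgeR's quasi-likelihood test at a Benjamini-Hochberg adjusted p of 0.05. In adalimumab the shares were 21.5%, 32.5% and 14.4%. Of the 8 genes, 3, 3 and 2 were called in control, which lies near the background. In adalimumab 4, 2 and 2 were called, of which the counts of days 3 and 10 lie above the 21.5% and 14.4% of all genes. The 4 of day 3 became 2 with the mouse as a block or without day 0 replicate 2 or 3. Arg1 and Acod1 rose in all 6 comparisons. The adjusted p-values below are over all tested genes.

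**Figure D2:**
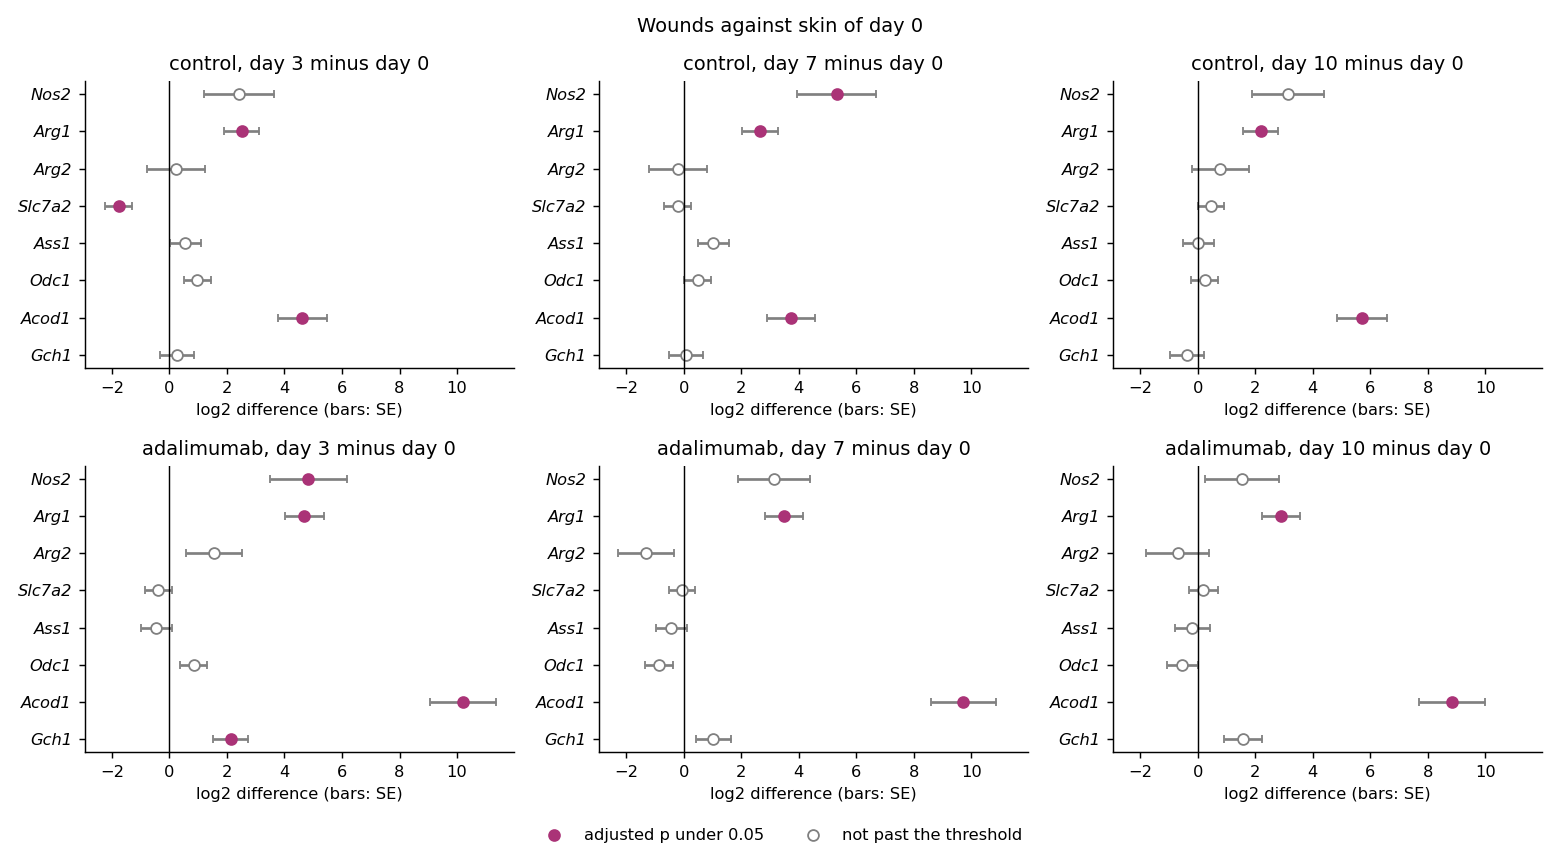
Log2 difference between wound and day 0 skin for each gene, by arm (upper row control, lower row adalimumab) and day, with bars for SE, and filled points where the adjusted p is under 0.05. Arg1 and Acod1 are filled in all 6 panels, Nos2 in control day 7 and adalimumab day 3, Slc7a2 in control day 3 (to the left of 0) and Gch1 in adalimumab day 3. The Acod1 points of the lower row rest on 2 counts in the day 0 group.

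Nos2, the inducible nitric oxide synthase, stood at 1.93, 2.94 and 1.67 CPM in control skin and at 2.14, 1.32 and 1.34 CPM in adalimumab skin. In control wounds it was 13.3, 8.23 and 13.5 CPM on day 3, then 5.16, 222 and 36.8 CPM on day 7, and 4.27, 6.83 and 46.3 CPM on day 10. In adalimumab wounds it was 7.90, 122 and 5.94 CPM on day 3, then 26.9, 3.66 and 11.7 CPM on day 7, and 4.53 and 4.77 CPM on day 10. Every wound lies above every skin library, but within control days 7 and 10 and adalimumab days 3 and 7 the libraries differ widely. In each of these groups 1 library carries most of the Nos2. Nos2 rose in control day 7 (log2 difference 5.33 ± 1.38 SE, adjusted p = 0.00714) and in adalimumab day 3 (4.83 ± 1.35, adjusted p = 0.0169). The control day 7 call ended without replicate 2 of that group (3.32, adjusted p = 0.0518). The adalimumab day 3 call ended without replicate 2 of that group (2.11, adjusted p = 0.204), without day 0 replicate 2 or 3 (both 4.71, adjusted p = 0.0669 and 0.0692), without both of these (4.44, adjusted p = 0.301), with the mouse as a block (3.32, adjusted p = 0.0822), in limma voom with sample weights (2.66, adjusted p = 0.147) and in a fit of those groups alone (4.89, adjusted p = 0.0761). In the other 4 comparisons the differences were 2.42 and 3.13 in control days 3 and 10 (adjusted p = 0.132 and 0.0601) and 3.14 and 1.54 in adalimumab days 7 and 10 (adjusted p = 0.0629 and 0.441). DESeq2 called control day 10 and adalimumab day 7 as well (adjusted p = 0.0126 and 0.0111), and fits of the compared groups alone called all 4 (adjusted p = 0.00614 to 0.0235). The pair of libraries with the most Nos2, control day 7 replicate 2 and adalimumab day 3 replicate 2, had the lowest macrophage marker sums of their groups, 1689 and 1963 CPM, while their neutrophil sums, 887.9 and 2227 CPM, were the highest of their groups. Whether cell makeup had a part in their Nos2 was not tested.

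Gch1, which opens the synthesis of the cofactor of nitric oxide synthase, stood at 2.73, 23.9 and 3.62 CPM in control skin and at 3.32, 4.40 and 4.95 CPM in adalimumab skin. The second control skin library lies above all wounds but adalimumab day 3 replicate 2. That same library also held the most Tnf (6.14 CPM against 0.496 and 0.791), Il1b (15.1 against 0.441 and 0.487) and macrophage transcripts (1344 CPM against 479.9 and 246.3) of its group. Whether these bear on its Gch1 was not tested. Reads were aligned to the mouse build, so in these HTNF ki/ki mice the Tnf row may not stand for the TNF transcript. In wounds Gch1 was 13.4, 9.38 and 13.7 CPM in control day 3, then 6.41, 15.9 and 9.46 CPM on day 7 and 6.16, 5.79 and 11.3 CPM on day 10. In adalimumab wounds it was 13.3, 29.8 and 12.2 CPM, then 8.36, 7.23 and 10.3 CPM, and finally 11.3 and 14.0 CPM. All adalimumab wounds lie above all adalimumab skin, and Gch1 rose there on day 3 (2.13 ± 0.62, adjusted p = 0.0212) but did not pass in edgeR on days 7 (1.03, adjusted p = 0.198) and 10 (1.58, adjusted p = 0.111). In a fit of the compared groups alone both days passed (adjusted p = 0.0423 and 0.01), and in voom day 10 passed (adjusted p = 0.00115). The day 3 call ended without any single adalimumab skin library (adjusted p = 0.0559 to 0.0646), without both hair-rich skin libraries (2.51, adjusted p = 0.2), without day 3 replicate 2 (1.60, adjusted p = 0.0983) and with the mouse as a block (2.05, adjusted p = 0.116). Against the uneven control skin, the control differences were 0.27, 0.07 and -0.38 on days 3, 7 and 10 and did not pass in edgeR or DESeq2. The second skin library decides these values: without it Gch1 was higher on days 3 (1.98, adjusted p = 0.00394), 7 (1.79, adjusted p = 0.00764) and 10 (1.34, adjusted p = 0.0305). In voom, whose weights differ between samples, Gch1 passed in control days 3 (1.75, adjusted p = 0.00289) and 7 (1.39, adjusted p = 0.009).

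Arg1, the cytosolic arginase, was 25.9, 23.3 and 47.1 CPM in control skin and 31.8, 14.0 and 31.9 CPM in adalimumab skin. In control wounds it reached 348, 100.3 and 98.2 CPM on day 3, then 186, 202 and 221 CPM on day 7, and 96.4, 179 and 164 CPM on day 10. In adalimumab wounds it reached 252.4, 1496.5 and 252.4 CPM on day 3, then 288, 324 and 258 CPM on day 7, and 190.2 and 196 CPM on day 10. The lowest wound thus lies above the highest skin library. Apart from control day 3 replicate 1, adalimumab day 3 replicate 2 and the lower control day 10 replicate 1, the replicates of a wound group lie close together. Arg1 rose by 2.51 ± 0.62 on the log2 scale in control day 3 (adjusted p = 0.0053), 2.66 ± 0.63 on day 7 and 2.19 ± 0.62 on day 10. In adalimumab it rose by 4.69 ± 0.69 on day 3 (adjusted p = 0.000153), 3.49 ± 0.65 on day 7 and 2.90 ± 0.67 on day 10. Without replicate 2 of adalimumab day 3 the rise on that day was 3.29 (adjusted p = 0.000213). The control day 3 call ended without replicate 1 of that group (1.63, adjusted p = 0.0529) and with the mouse as a block (2.33, adjusted p = 0.0863). The adalimumab day 10 call ended when the hair-rich skin replicates 2 and 3 were both omitted, which leaves 1 skin library in that arm (2.71, adjusted p = 0.141).

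Arg2, the mitochondrial arginase, was the scarcest gene per length by the median over all libraries. By group median, Nos2 and Acod1 were lower than Arg2 in both skin groups, and Slc7a2 and Gch1 also in adalimumab skin. Nos2 was lower too in adalimumab days 3 and 10, and Slc7a2 in adalimumab day 3. Control skin held 0.937, 1.29 and 0.578 CPM of Arg2 and control wounds 0.382 to 2.14 CPM, which overlap. Adalimumab skin held 0.356, 7.07 and 6.75 CPM, with the high values in the hair-rich libraries. Adalimumab day 3 held 2.57, 35.6 and 3.36 CPM, day 7 held 0.542, 1.23 and 3.92 CPM, and day 10 held 3.36 and 2.49 CPM. The single high library of day 3 is again replicate 2. No comparison of wound with skin passed in edgeR or DESeq2 in either arm (log2 differences between -1.31 in adalimumab day 7 and 1.55 in adalimumab day 3). Voom called the lower level of adalimumab day 7 against its skin (-2.11, adjusted p = 0.0245).

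Slc7a2, an arginine transporter, fell in control day 3. Control skin held 29.9, 26.4 and 33.6 CPM, and day 3 held 9.48, 12.4 and 4.59 CPM, with no overlap (log2 difference -1.77 ± 0.48, adjusted p = 0.0088). On day 7 it was 28.4, 31.4 and 18.3 CPM and on day 10 it was 28.0, 48.1 and 47.5 CPM, neither past the threshold against skin (-0.20 and 0.46). All 3 control day 7 libraries lie above those of day 3, a difference of 1.56 ± 0.47 that missed the threshold in edgeR (adjusted p = 0.0756) and passed in DESeq2 (1.61, adjusted p = 0.0174) and in limma voom (1.55, adjusted p = 0.0264). In adalimumab, skin held 22.5, 42.3 and 21.5 CPM and day 3 held 9.39, 43.6 and 13.0 CPM, which overlap because of replicate 2 of day 3, and the difference was -0.39 ± 0.46 (adjusted p = 0.588). Without that library Slc7a2 was lower on day 3 in adalimumab too (-1.36, adjusted p = 0.0289), as it was in voom (-1.33, adjusted p = 0.0175). On day 7 adalimumab wounds held 25.2, 22.8 and 34.9 CPM and on day 10 they held 36.9 and 29.3 CPM, close to skin. That the arms differ in this change was not shown (difference between arms 1.38 ± 0.66, adjusted p = 0.245). Skin also held other sources of transcripts that fell away with wounding: muscle markers summed to 10752 to 32156 CPM in control skin and 222.9 to 1043 CPM in control day 3, and fat cell markers to 7395 to 12929 and 439.8 to 2588 CPM. Their part in the fall of Slc7a2 was not tested.

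Ass1, which rebuilds arginine from citrulline, passed in no comparison of wound with skin in edgeR, DESeq2 or voom. It was 16.3 to 21.2 CPM in control skin, and 12.8 to 69.9 CPM in control wounds, the highest being day 7 replicate 2, the library with the most Nos2. In adalimumab, skin held 18.4, 36.4 and 98.5 CPM and wounds 25.1 to 52.7 CPM, so that a hair-rich skin library gave the highest value of the series. Odc1, the first enzyme of polyamine synthesis, was 72.0, 101 and 102 CPM in control skin and 254, 176 and 109 CPM in control day 3, which do not overlap, without passing in edgeR (0.97 ± 0.48, adjusted p = 0.125), although voom called it (1.10, adjusted p = 0.0211). In adalimumab it was 89.7, 186 and 187 CPM in skin and 148, 512 and 167 CPM on day 3. On day 7 it had 44.7, 84.0 and 125 CPM, below every day 3 library. Voom called Odc1 lower than skin in adalimumab days 7 and 10 (-1.10 and -0.76, adjusted p = 0.0162 and 0.0328), where edgeR did not (-0.86 and -0.54). On day 10 it was 123 and 89.9 CPM, and the later control wounds held 128, 171 and 86.8 CPM on day 7 and 67.2, 113 and 145 CPM on day 10.

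Between wound days, 3.05% of all genes were called in control and 6.48% in adalimumab for day 7 against day 3, and 0% in both arms for day 10 against day 7. Days 3 and 7 also differ in series and, but for adalimumab day 7 replicate 3, in sex, so these changes cannot be credited to time alone. Between days 3 and 7 in control edgeR called none of the 8 genes, with 2 (Nos2 and Slc7a2) at an unadjusted p under 0.05, while DESeq2 and voom both called Slc7a2, as given above. Of all 23083 tested genes, 4781 had such a p in that comparison. In adalimumab edgeR called 1: Odc1 fell by 1.70 ± 0.49 on the log2 scale (adjusted p = 0.0454). That call ended without day 3 replicate 1 (-1.94, adjusted p = 0.0508) or replicate 2 (-0.90, adjusted p = 0.233), without day 7 replicate 1 (-1.36, adjusted p = 0.189) or replicate 2 (-1.64, adjusted p = 0.142), with voom (-1.18, adjusted p = 0.101), with no filter (-1.65, adjusted p = 0.0538) and in a fit of those groups alone (-1.65, adjusted p = 0.315). DESeq2 called Odc1 and also Arg2 (-2.84, adjusted p = 0.0233, against -2.86 and 0.0946 in edgeR). None of the 8 was called by edgeR between days 7 and 10 in either arm, where 1 (Acod1, 1.98 ± 0.72) had an unadjusted p under 0.05 in control and 0 in adalimumab, and DESeq2 and voom called 0 in both. Of all tested genes, 1185 in control and 1618 in adalimumab had such a p.

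Acod1, the itaconate-making enzyme, was nearly absent from skin. Control skin held 10, 11 and 2 counts (0.276, 0.303 and 0.0609 CPM) and adalimumab skin 0, 0 and 2 counts. In control wounds it reached 2.08, 5.84 and 8.26 CPM on day 3, 1.37, 5.51 and 1.82 CPM on day 7, and 10.8, 4.87 and 18.7 CPM on day 10. In adalimumab wounds it reached 12.7, 30.2 and 29.5 CPM on day 3, 19.3, 6.39 and 25.7 CPM on day 7, and 13.0 and 5.60 CPM on day 10. Skin and wound do not overlap, and on days 3 and 7 every adalimumab library lies above every control library. Acod1 rose in control by 4.63 ± 0.85 on day 3 (adjusted p = 0.000624), 3.73 ± 0.83 on day 7 (adjusted p = 0.00278) and 5.71 ± 0.88 on day 10 (adjusted p = 0.000171). It also rose in all 3 adalimumab wound groups (adjusted p = 1.84e-05, 1.97e-05 and 0.000104). With 2 counts in adalimumab skin the fitted size depends on the prior count, so the ratio of summed counts per library size is given instead, with 95% intervals that cover counting error only: 1313 on day 3 (363.1 to 10847), 920.5 on day 7 (254.4 to 7606) and 538.2 on day 10 (148.4 to 4453). Control skin held 11.4 times as much as adalimumab skin by the same ratio (2.80 to 99.3). Summed neutrophil markers on day 7 ran from 452.7 to 887.9 CPM for control libraries. Those of adalimumab ran from 910.6 to 2821 CPM, without overlap. The mean log2 level of the same 10 genes, taken relative to all libraries, did overlap on day 7. It was 0.53, 0.86 and -0.45 for control replicates 1 to 3, against 0.23, 0.55 and 1.24 for adalimumab replicates. Adalimumab day 7 replicate 2, with the highest sum, had 3 of these genes at 0 and the least Acod1 of its group. The sum and the mean log2 level thus differ on whether the arms overlap in neutrophil markers on day 7. Day 3 sums were 67.6 to 244.5 CPM for control libraries, against 201.6 to 2227 CPM for adalimumab. Macrophage sums overlapped between arms on both days. The part of neutrophils in the Acod1 values was not tested.

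The second question was whether adalimumab and control differ on each day. Of all tested genes, 0.269% were called on day 0, 0% on days 3, 7 and 10 alike, and 0.00433% in the average over the 3 wound days. None of the 8 genes passed edgeR's test in any of these 5 comparisons. With an unadjusted p under 0.05 there were 3 on day 0, 4 on day 3, 2 on day 7, 1 on day 10 and 3 in the average. Of all 23083 tested genes, 3066, 3916, 945, 3245 and 4042 had such a p. DESeq2 called 0, 3, 0, 0 and 2 of the 8, and limma voom with sample weights called 3, 0, 0, 1 and 1. DESeq2 called 1.71%, 2.05%, 0.0125%, 1.01% and 2.75% of the genes it analysed. Voom called 7334, 0, 2, 5020 and 2880 of the 23083 genes. Statements that all adalimumab libraries lie above all control libraries are a description only. The share of all tested genes that separate so was not counted.

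**Figure D3:**
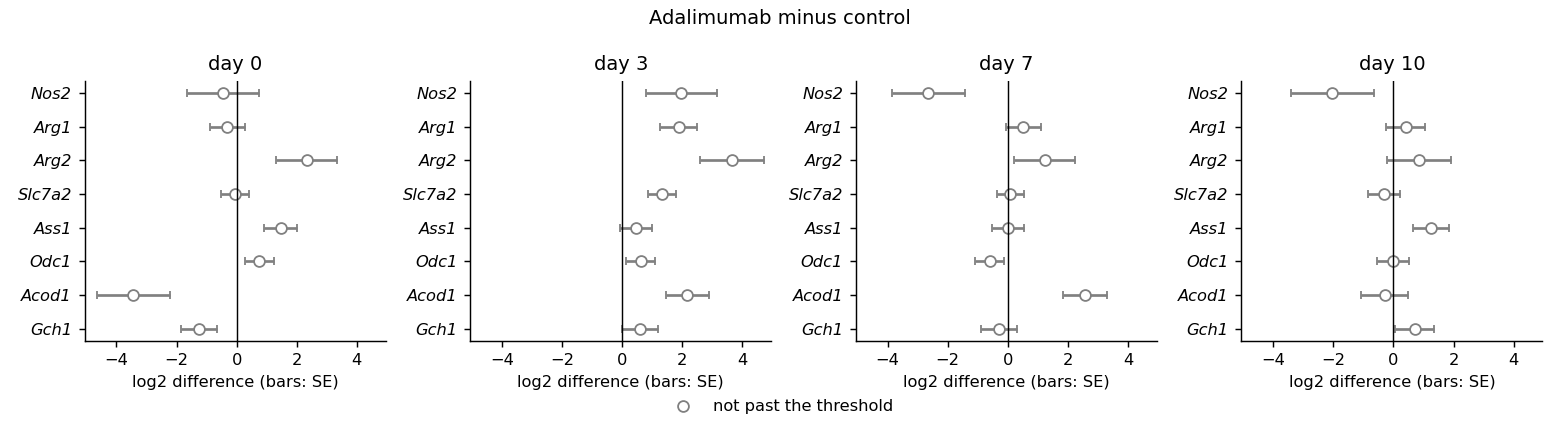
Log2 difference, adalimumab minus control, for each gene by day, with bars for SE. All points are open because none passed the threshold. On day 3 all 8 lie to the right of 0, and on days 7 and 10 Nos2 is the gene farthest to the left.

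On day 3 the fitted differences of all 8 genes were above 0, with a median of 1.59 against 0.03 over all genes, and adalimumab replicate 2 had the highest value of the 6 libraries for each gene except Ass1, nearly level with replicate 3 for Acod1. Arg2 differed by 3.65 ± 1.07 (adjusted p = 0.164) and Acod1 by 2.16 ± 0.72 (adjusted p = 0.186), each with all adalimumab libraries above all control libraries. Arg1 differed by 1.87 ± 0.61 (adjusted p = 0.181). By DESeq2 these 3 genes passed (adjusted p = 0.0109, 0.0484 and 0.0439), against 2.05% of the genes analysed by that tool. Nos2 differed by 1.96 ± 1.18, a difference that turned to -0.76 without adalimumab replicate 2 and to -0.48 in voom. Slc7a2 differed by 1.32 ± 0.47 (adjusted p = 0.199). Without adalimumab replicate 2 the difference was 1.43 for Arg2, 0.47 for Arg1 and 0.35 for Slc7a2 (adjusted p = 0.587, 0.762 and 0.791), whereas for Acod1 it was 1.96 (adjusted p = 0.41). In voom it was 2.04 for Arg2, 0.88 for Arg1 and 0.89 for Slc7a2.

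On day 7 Acod1 was 2.56 ± 0.73 higher in adalimumab and Nos2 2.64 ± 1.21 lower, both with an adjusted p of 1 by edgeR. All adalimumab libraries lay above all control libraries for Acod1 and for Arg1 (0.51 ± 0.59), whereas those of Nos2 overlapped. Adalimumab day 7 replicate 3, unlike all control day 7 libraries, held more Xist than Ddx3y. It had the highest Acod1 (25.7 CPM) and the lowest Arg1 (258 CPM) of its group. Whether sex bears on these differences was not tested. Without control day 7 replicate 2 the Nos2 difference was -0.57. On day 10 the difference of Nos2 was -2.04 ± 1.38, or -0.26 without control replicate 3, and that of Ass1 1.25 ± 0.59 (adjusted p = 0.352), with both adalimumab libraries of Ass1, 50.4 and 39.2 CPM, above the 12.8, 19.5 and 24.1 CPM of control. Ass1 passed on day 10 in voom (1.32, adjusted p = 0.0332) and in a fit of those 2 groups alone (1.28, adjusted p = 0.0302). Arg1 and Arg2 too were higher in both adalimumab libraries of day 10 than in all controls, by 0.40 ± 0.65 and 0.85 ± 1.07. Keratinocyte transcripts went with arm on that day: differentiating epidermis markers summed to 13311 to 18728 CPM in adalimumab and 766.3 to 1347 CPM in control. Whether they bear on Ass1, Arg1 or Arg2 was not tested.

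Averaged over the 3 wound days, Acod1 differed by 1.47 ± 0.42 (adjusted p = 0.102), Arg2 by 1.91 ± 0.60 (adjusted p = 0.124), Arg1 by 0.93 ± 0.35 (adjusted p = 0.186) and Nos2 by -0.91 ± 0.70 (adjusted p = 0.537). Acod1 passed in DESeq2 (adjusted p = 0.0162) and voom (adjusted p = 0.0196), and Arg2 in DESeq2 (adjusted p = 0.0203). Without adalimumab day 3 replicate 2 the averages were 1.17 for Arg2, 0.46 for Arg1 and -1.81 for Nos2. The Nos2 average was -0.21 without control day 7 replicate 2 and -0.31 without control day 10 replicate 3.

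On day 0 the largest fitted difference was that of Acod1 (-3.43 ± 1.22, adjusted p = 0.206), which rests on 23 counts in control and 2 in adalimumab. Arg2 differed by 2.33 ± 1.02 and Ass1 by 1.46 ± 0.55, with the high values in the hair-rich replicates 2 and 3. With both of these omitted the differences turned to -1.44 and -0.056, and without replicate 1 alone Ass1 passed (1.86, adjusted p = 0.0428). Gch1 differed by -1.25 ± 0.61, which turned to 0.39 without the high control replicate 2 and to 0.24 in voom.

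Whether the change from skin to day 3 wound differed between arms was tested as an interaction, in which 1.81% of all genes were called. Of the 8 genes 1 passed: the increase of Acod1 was larger in adalimumab, by 5.59 ± 1.40 on the log2 scale (adjusted p = 0.0493). This value includes the 2 counts of adalimumab skin, so its size is no bound, and it sums a lower starting level and a higher day 3 level. It did not pass with the mouse as a block (5.83, adjusted p = 0.185) or in a fit of the 4 groups alone (5.58, adjusted p = 0.146). Omitting single libraries gave adjusted p-values above the threshold in 9 of 12 cases. Arg1 differed by 2.18 ± 0.84 (adjusted p = 0.157), Gch1 by 1.86 ± 0.85 (adjusted p = 0.227) and Nos2 by 2.41 ± 1.67 (adjusted p = 0.439). Single libraries carried these values: without adalimumab day 3 replicate 2 the Arg1 difference was 0.78 and that of Nos2 -0.30, and without control day 0 replicate 2 that of Gch1 was 0.20.

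The third question was the balance of Arg1 and Nos2 within each library, where the library size cancels. Arg1 counts exceeded Nos2 counts in 22 of 23 libraries. The exception was control day 7 replicate 2, with 6741 counts of Arg1 and 7431 of Nos2, a ratio of 0.907. Per transcript length, Arg1 (1477 bases) exceeded Nos2 (4192 bases) in 23 of 23, and in that library by 2.57 times.

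The count ratio of Arg1 to Nos2 was 13.3, 7.88 and 27.9 in control skin and 14.8, 10.5 and 23.6 in adalimumab skin, and the ranges overlap. In control wounds it was 26.2, 12.2 and 7.24 on day 3, then 35.9, 0.907 and 6.02 on day 7, and 22.5, 26.1 and 3.54 on day 10. In adalimumab wounds it was 31.9, 12.2 and 42.4 on day 3, then 10.7, 88.1 and 22.0 on day 7, and 41.9 and 41.0 on day 10. The 4 lowest wound ratios all belong to control, and adalimumab day 3 replicate 2, although it had the most Arg1 of all libraries, has a ratio within the range of its own skin group because its Nos2 was high too. On day 10 both adalimumab ratios exceed all 3 control ratios.

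**Figure D4:**
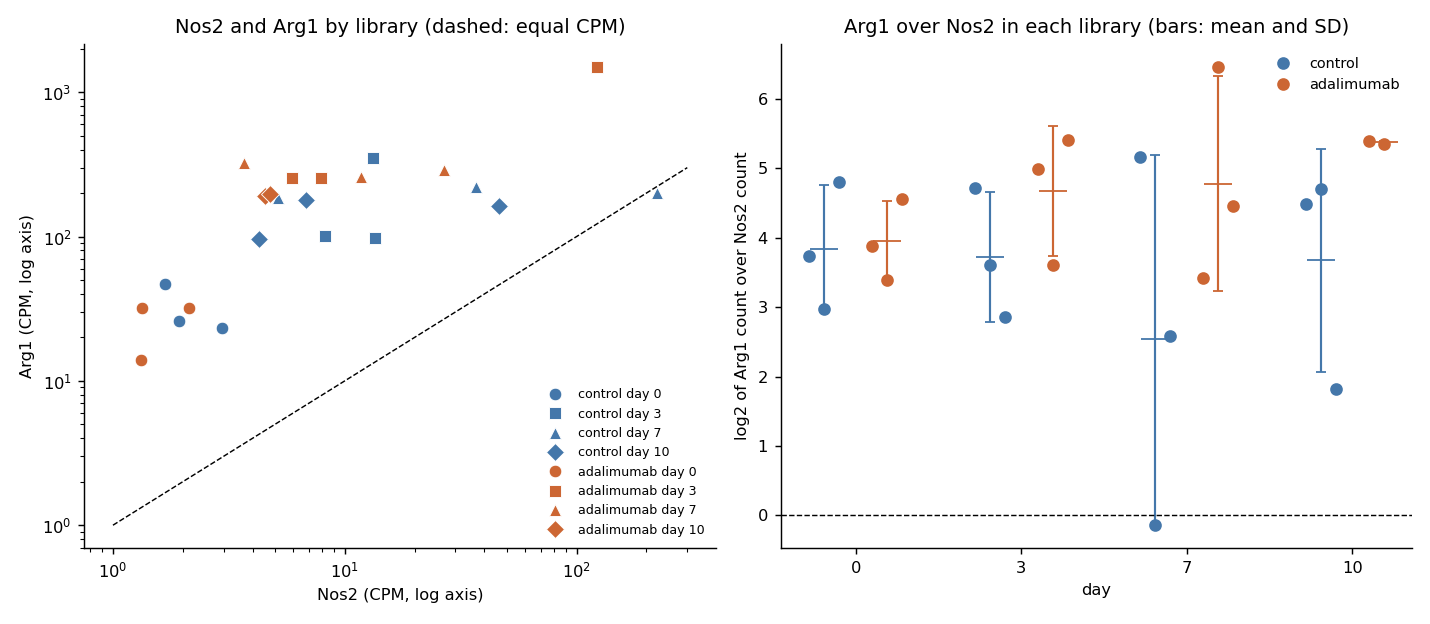
Left, Arg1 against Nos2 in CPM on log axes, 1 point per library (circles day 0, squares day 3, triangles day 7, diamonds day 10; blue control, orange adalimumab), with a dashed line of equal CPM. Right, log2 of the Arg1 count over the Nos2 count by day, with group means and SD. A single point, control day 7 replicate 2 at a ratio of 0.907, lies below equality, and the control wound groups spread wider than the skin groups on days 7 and 10.

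On the log2 scale the mean ratio was 3.84 ± 0.92 (SD, n = 3) in control skin, 3.72 ± 0.93 on day 3, 2.54 ± 2.65 on day 7 and 3.67 ± 1.61 on day 10. In adalimumab it was 3.95 ± 0.59 in skin, 4.67 ± 0.94 on day 3, 4.78 ± 1.55 on day 7 and 5.37 ± 0.02 (n = 2) on day 10. The arms differed by 0.11 on day 0, 0.95 on day 3, 2.24 on day 7 and 1.70 on day 10, with exact two-sided permutation p = 0.9, 0.2, 0.3 and 0.3, where the smallest p that 3 against 3 or 3 against 2 libraries allow is 0.1. Over the 3 wound days together, permuting arm within day, the difference was 1.63 in the direction of more Arg1 per Nos2 in adalimumab (exact p = 0.0373 over 4000 arrangements). After Benjamini-Hochberg adjustment over the 6 ratio tests this exact p became 0.224, so the difference did not hold. Without control day 7 replicate 2 the difference was 1.18 (exact p = 0.092). In the 6 mice sampled on days 0 and 3 the log2 ratio changed by 0.31 on average (exact sign-flip p = 0.531, adjusted 0.638). It was higher on day 3 in 5 of the 6 and dropped by 1.94 in control mouse 3.

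Across the 17 wound libraries, each from a mouse of its own, 13 pairs of genes were examined (Nos2 or Arg1 with each other member) on log2 CPM. None passed after adjustment over the 13. The highest were Arg1 with Arg2 (Pearson r = 0.67, permutation p = 0.0142, adjusted 0.0924, Spearman rho = 0.34), which rested on day 3 (r = 0.94 there, -0.17 on days 7 and 10), and Nos2 with Gch1 (r = 0.59, permutation p = 0.0121, adjusted 0.0924, rho = 0.50). For Nos2 with Gch1, r was 0.94 within day 3 and 0.56 within days 7 and 10, and it dropped to 0.24 without control day 7 replicate 2 and adalimumab day 3 replicate 2. Nos2 with Arg1 gave r = 0.41 (permutation p = 0.105, adjusted 0.245) and rho = 0.20, and r = 0.08 without those libraries.

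With each library taken as its deviation from the mean of its arm and day, Nos2 and Gch1 went together: r = 0.92 and rho = 0.91, with exact p = 0.00264 and 0.00129 from all 15552 arrangements of libraries within groups, adjusted over the 13 pairs to 0.0343 and 0.0167. Each scale was adjusted over its own 13 pairs only. Plain log2 CPM was the main scale, and on it this pair did not pass, as given above. Deviations were an alternative to that scale. The relation was present on day 3 (r = 0.97, n = 6, exact p = 0.0278) and on days 7 and 10 (r = 0.90, n = 11, exact p = 0.0231). The day 3 value is 1 of 36 arrangements, the lowest p that day allows. Without the 2 libraries farthest in Nos2, control day 7 replicate 1 and adalimumab day 3 replicate 2, r was 0.88 (exact p = 0.0237). None of the other 12 pairs passed on this scale: Arg1 with Odc1 gave r = 0.72 (exact p = 0.0291, adjusted 0.172), Nos2 with Acod1 0.59 (exact p = 0.0398, adjusted 0.172) and Nos2 with Arg1 0.52 (exact p = 0.0629, adjusted 0.204).

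**Figure D5:**
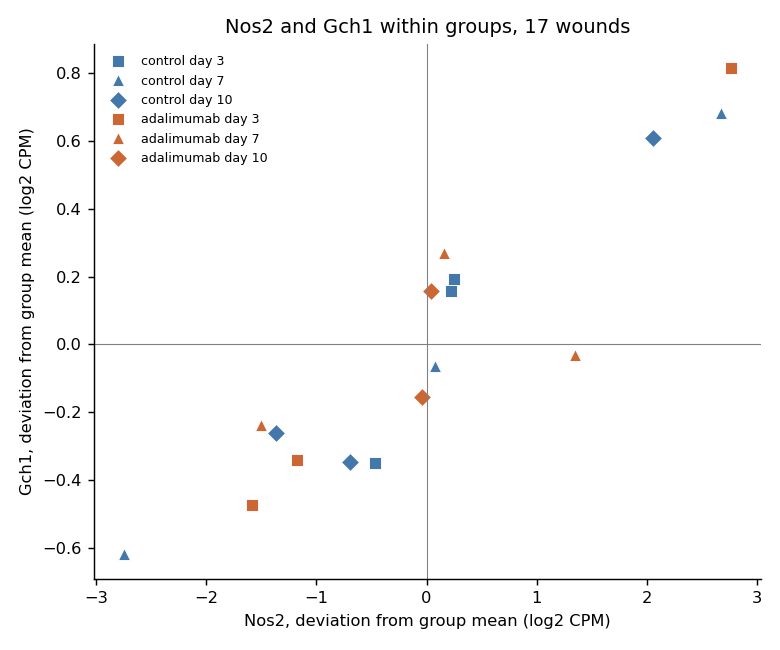
Deviation of Gch1 against deviation of Nos2 from the mean of their arm and day group, in log2 CPM, for the 17 wound libraries (squares day 3, triangles day 7, diamonds day 10; blue control, orange adalimumab). The points run from control day 7 replicate 1 at the lower left to adalimumab day 3 replicate 2 at the upper right (r = 0.92), with Nos2 spanning several times the range of Gch1.

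Over all 23 libraries and 12918 genes averaging 1 or more on the log2 CPM scale, the genes whose log2 CPM followed Nos2 most closely were Osmr, the oncostatin M receptor (r = 0.95), Snapc1 (0.92), the cytokine gene Lif (0.91), the interleukin 1 receptor gene Il1r1 (0.91) and Il6 (0.91). Those closest to Arg1 were AI504432 (0.92), the matrix protein gene Ecm1 (0.91), the endotoxin co-receptor gene Cd14 (0.91), the protease inhibitor gene Cstb (0.90) and AA467197 (0.90). Those closest to Acod1 were the cation channel gene Trpm2 (0.96), Clec4e (0.94), a pattern receptor of myeloid cells, Mefv (0.93), which encodes pyrin, the chemokine gene Ccl3 (0.93) and Csf3r (0.93), the G-CSF receptor of neutrophils. Among the members, Arg1 with Acod1 had r = 0.83 and Arg1 with Nos2 0.71 over the same 23 libraries. These r describe libraries that include the step from skin to wound, and carry no test.

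Signals known to induce Nos2 and Acod1 were listed beside them: interleukin 1, TNF and interferon gamma. Il6 was not in that list but among the inducers or companions of Arg1. It rose in control day 7 (5.31 ± 1.88, adjusted p = 0.0372) and adalimumab day 3 (8.51 ± 2.19, adjusted p = 0.0109). Il6 was 324 CPM in control day 7 replicate 2, 726 CPM in adalimumab day 3 replicate 2 and 149 CPM in control day 10 replicate 3, in each case the library with the most Nos2 of its group. This did not hold in the other groups of wounds: in control day 3 replicate 3, with the most Nos2, had the least Il6 (7.71 CPM against 36.4 and 12.2), in adalimumab day 7 replicate 1 had 7.10 CPM against 7.29 in replicate 3, and in adalimumab day 10 the library with more Nos2 had less Il6 (1.58 against 2.60 CPM). The Il6 calls ended without control day 7 replicate 2 and without adalimumab day 3 replicate 2 (3.99 and 3.76, adjusted p = 0.118 and 0.115). Il1b rose in adalimumab days 3 (6.17 ± 1.43, adjusted p = 0.00569) and 7 (4.66 ± 1.34, adjusted p = 0.0142). In control it did not pass against a skin group of 0.441, 15.1 and 0.487 CPM. Control wounds held 3.73 to 68.3 CPM of Il1b, so skin replicate 2 lies within their range and the other skin libraries below it. Between the arms Il1b passed on no day. Tnf was 0.484 to 2.05 CPM in all wounds and fell in control days 3 (-1.93 ± 0.69, adjusted p = 0.0384) and 7 (-1.89 ± 0.69, adjusted p = 0.0429) against a control skin group in which replicate 2 stood at 6.14 CPM. Without that library the Tnf differences were 0.05 and 0.10. Reads were aligned to the mouse build GRCm39, while the mice are HTNF ki/ki. Whether the Tnf row counts the TNF transcript they make is not known, so its values may not stand for TNF. Ifng had at most 7 counts in a library. Of the other signals known to induce Arg1, Il4 was 0.643 to 2.29 CPM throughout, with overlap of skin and wound, and Il13 was at 0 to 5 counts in all libraries except control skin replicates 1 and 2, with 7 and 61.

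Of 90 further genes of these pathways, 85 were tested, in 6 lists. Against skin, 28 were higher and 19 lower in control day 3, 24 and 24 on day 7, and 18 and 23 on day 10, which is 55.3%, 56.5% and 48.2% of the 85 against 34.6%, 33.4% and 34.4% of all genes. In adalimumab the counts were 20 and 2, 22 and 15, and 17 and 7, or 25.9%, 43.5% and 28.2% against 21.5%, 32.5% and 14.4% of all genes. The list medians over all 85 lay between 0.03 and 0.34, near the medians of all genes, which were -0.16 to -0.01.

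In the list from ornithine to polyamines and proline (16 tested), 6 rose and 3 fell in control day 3 (56.2% against 34.6% of all genes). Spermidine synthase, Srm, rose from 24.4 to 69.8 CPM (1.52 ± 0.17) and Aldh18a1, which opens proline synthesis from glutamate, rose from 16.7 to 67.9 CPM (2.02 ± 0.28), while Prodh, which breaks proline down, fell from 25.2 to 4.54 CPM (-2.47 ± 0.42). On day 7 the last enzyme of proline synthesis, Pycr1, was higher (26.9 against 3.02 CPM, 3.15 ± 0.31) and so was the antizyme inhibitor gene Azin2 (2.24 ± 0.28), and both remained so on day 10. Pycr1 averaged 10.0 CPM in control day 3, and its test against skin on that day is not reported here. In adalimumab day 3, 0 of the 16 rose and 1 fell (Prodh, -1.22 ± 0.40), 6.25% against 21.5% of all genes. That Prodh call ended in 7 of 14 alternatives, among them the mouse as a block (-1.16, adjusted p = 0.145) and omission of day 3 replicate 2 (-1.04, adjusted p = 0.132). In contrast, Pycr1 rose on day 7 (2.69 ± 0.31) and on day 10 (1.94 ± 0.32). The change from skin to day 3 was lower in adalimumab than in control for Aldh18a1 (-2.07 ± 0.39, adjusted p = 0.0261) and Srm (-1.09 ± 0.24, adjusted p = 0.029). Both calls ended with the mouse as a block (-1.94 and -1.09, adjusted p = 0.185 and 0.249), a fit in which 0 of all genes were called in the interaction. They ended too in a fit of the 4 groups alone and in 8 of the 12 single omissions. Aldh18a1 was also higher in adalimumab skin (44.3 against 16.7 CPM, 1.41 ± 0.28, adjusted p = 0.0481), the group with hair-rich libraries. This call ended in 10 of 14 alternatives: RLE factors, the stricter filter, a fit of the compared groups, the replicate block, 5 of the 6 single omissions, and omission of both hair-rich libraries (0.18). In the unblocked fit all 8 proliferation markers had a lower interaction too, and 0 of the 8 passed with the mouse as a block, in a fit of the 4 groups alone or in the same 8 single omissions. Their sums were of 163.5 to 211.0 CPM in control skin, 197.9 to 773.1 in adalimumab skin, 785.3 to 1027 in control day 3 and 298.2 to 635.4 in adalimumab day 3. Their part in the polyamine and proline genes was not tested.

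Among 14 genes of arginine transport, citrulline recycling and nitric oxide, 5, 4 and 4 rose and 2, 3 and 3 fell in control over days 3, 7 and 10, and 2, 4 and 3 rose and 1, 4 and 1 fell in adalimumab. The shares called were 50.0% on each day in control, against 34.6%, 33.4% and 34.4% of all genes, and 21.4%, 57.1% and 28.6% in adalimumab, against 21.5%, 32.5% and 14.4%. Ddah1, which breaks down the methylarginines that inhibit nitric oxide synthase, rose on days 7 and 10 in control (3.54 ± 0.33 and 3.62 ± 0.33) and on days 3, 7 and 10 in adalimumab (2.48 ± 0.31, 3.94 ± 0.33 and 3.68 ± 0.34). In control it averaged 13.0 CPM in skin and 58.4 CPM on day 3, a comparison whose test is not reported here. No difference between the arms on day 3 follows from these calls. The general arginine transporter gene Slc7a1 fell in adalimumab day 3 (99.5 to 35.0 CPM, -1.51 ± 0.46, adjusted p = 0.0255), a call that ended in 8 of 14 alternatives, the mouse as a block among them (-1.34, adjusted p = 0.207). Of 6 tetrahydrobiopterin genes beside Gch1, 1 rose on each day in control, 1, 3 and 1 fell on days 3, 7 and 10, and 0 passed in adalimumab on any day against skin, so that 33.3%, 66.7% and 33.3% were called in control and 0% in adalimumab.

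Of 21 genes of itaconate, succinate and the Nrf2 response, 10, 13 and 13 fell in control days 3, 7 and 10, while 5, 3 and 3 rose. Those that fell make 47.6%, 61.9% and 61.9% of the list, against 17.1%, 17.0% and 18.2% of all genes, and those that rose 23.8%, 14.3% and 14.3%, against 17.5%, 16.4% and 16.2%. In adalimumab 0, 8 and 4 fell (0%, 38.1% and 19.0%, against 9.54%, 17.9% and 5.41% of all genes), and 4, 3 and 3 rose (19.0%, 14.3% and 14.3%, against 11.9%, 14.6% and 9.02%). With the mouse as a block, 2 rose and 9 fell in control day 3, and 2 rose and 0 fell in adalimumab day 3. Among those that fell were genes of the citric acid cycle: in control, citrate synthase, Cs, went from 480.9 to 161.8 CPM on day 7 (-1.57 ± 0.24) and the succinate dehydrogenase subunit gene Sdhb from 108.6 to 46.4 CPM on day 10 (-1.23 ± 0.20). Clybl, which takes part in breaking down itaconate, fell in control day 3 (-1.75 ± 0.34). Muscle markers, as given above for control, summed to 5358 to 13847 CPM in adalimumab skin and 1289 to 5045 CPM in adalimumab day 3, and their part in these enzymes was not tested.

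Of the 13 tested inducers of Nos2 and Acod1, 5, 4 and 1 rose in control and 7, 6 and 4 in adalimumab over days 3, 7 and 10. These are 38.5%, 30.8% and 7.69% in control, against 17.5%, 16.4% and 16.2% of all genes, and 53.8%, 46.2% and 30.8% in adalimumab, against 11.9%, 14.6% and 9.02%. Those that fell were 2, 1 and 0 in control (15.4%, 7.69% and 0%, against 17.1%, 17.0% and 18.2% of all genes). In adalimumab 0 fell on each day, against 9.54%, 17.9% and 5.41% of all genes. With the mouse as a block 3 rose in control day 3 and 6 in adalimumab day 3, and a difference between the arms in these counts was not tested. Of the 15 tested inducers or companions of Arg1, 6, 7 and 4 rose in control and 7, 6 and 5 in adalimumab, or 40.0%, 46.7% and 26.7%, and 46.7%, 40.0% and 33.3%. Of the same 15, 1, 2 and 3 fell in control (6.67%, 13.3% and 20.0%) and 0, 1 and 0 in adalimumab (0%, 6.67% and 0%). The shares of all genes are those just given. The mannose receptor gene Mrc1, a marker of macrophages that often express Arg1, rose from 77.2 to 1393 CPM in control day 3 (4.17 ± 0.46) and from 44.9 to 846.9 CPM in adalimumab day 3 (4.24 ± 0.46), and Il10ra rose in adalimumab day 3 (3.26 ± 0.46). Chil3, another such marker, fell from 279.7 CPM on day 3 to 15.1 CPM on day 7 in adalimumab (-4.21 ± 0.93, adjusted p = 0.0181), a call that ended in 4 of 12 alternatives. These days differ in series and mostly in sex as well. Between the arms, 0 of the 85 passed on days 3, 7 and 10 and in their average, and 1 (Aldh18a1) on day 0.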

How the data were processed

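Libraries were made from total RNA (SMARTer Stranded Total RNA Pico kit, single reads of 50 bases, per the labels' protocols). The submitters' processing notes name STAR and the build GRCm39. How reads were counted, with which annotation and strand, is not stated there, so the split of reads between overlapping genes cannot be checked. The deposited table holds the authors' whole-number counts per gene, without normalization. Groups came from the labels. Counts were fitted with edgeR 4.0.16 in R 4.3.3: genes passed filterByExpr (10 counts, 15 in total), TMM scaled the 23 libraries, and quasi-likelihood F tests (glmQLFTest) compared the 8 group means, with Benjamini-Hochberg adjustment over 23083 genes at 0.05. CPM use TMM library sizes, and log2 CPM a prior count of 2. The common dispersion was 0.181. The fit was tested on simulated data.

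Alternatives were DESeq2 1.42.0, voom of limma 3.58.1 with sample weights, RLE scaling, other filters, fits of the compared groups, blocks and omission of each library, and, chosen after seeing the data, omission of both hair-rich libraries. Days 0 and 3 pair by mouse codes in the column names. Deviations of paired libraries correlated at -0.08, -0.04 and -0.07 in control and at 0.26, -0.11 and 0.26 in adalimumab. Replicates are separate mice by these codes, 17 in all. The share of genes with identical counts in a pair of libraries of 1 group was at most 0.052.

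Ratios of Arg1 to Nos2 add 0.5 to each count. Lengths come from a GRCm38 annotation. Intervals of count ratios cover counting error only, since reads carry no molecular identifiers. The members, the pathway and marker lists and the naming rule (all members, up to 3 list genes per direction by adjusted p, named cytokines as values, the 5 closest genes by r) were chosen with earlier results of these data known. Some list genes that the naming rule picks are not reported here.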

Additional observations from a re-analysis of the deposited data

Results flagged for a closer look

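Acod1 is singled out by a test of the difference itself: its change from day 0 to day 3 was larger in adalimumab than in control by 5.59 ± 1.40 (log2, SE; edgeR quasi-likelihood, adjusted p = 0.0493, 1.81% of all genes called). In adalimumab the counts went from 0, 0 and 2 to 469, 986 and 1156, and in control from 10, 11 and 2 to 71, 217 and 297. All adalimumab day 3 libraries exceed all control day 3 libraries, a separation whose share over all genes was not counted. The size rests on 2 counts in adalimumab skin and the test on a value close to the threshold, and it did not pass with the mouse as a block (adjusted p = 0.185).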

How the results depend on the processing

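How many of the 8 genes passed depended on the tool, the samples and single libraries, and the cause was not tested unless named. DESeq2 called 3 on day 3 and 2 in the wound average between arms, 1 in control day 7 against day 3 and 2 in the same adalimumab comparison. Over all genes it called 820, 1103, 1955 and 3082 in these, in that order. Voom called 3 between arms on day 0, 1 on day 10 and 1 in the average, 5 in control day 3 against skin, 4 in adalimumab days 7 and 10 against skin, and 1 and 0 in control and adalimumab day 7 against day 3. Over all 23083 genes it called 7334, 5020 and 2880 between arms and 11550, 11418 and 12216 against skin. Between days 3 and 7 it called 3366 in control and 1734 in adalimumab. Fits of the compared groups alone called 1 between arms on day 10, 4 in adalimumab days 7 and 10 against skin, 0 in the interaction and 0 in adalimumab day 7 against day 3. Over all genes these fits called 1831, 4612, 4581, 0 and 0, in that order. The interaction also gave 0 with RLE factors and with no filter, and adalimumab day 7 against day 3 gave 0 with no filter. With adalimumab day 0 replicates 2 and 3 omitted (fewer samples), 2 and 1 were called in adalimumab days 3 and 10 against skin and 0 in the interaction. With the mouse as replicate block, 2 were called in adalimumab day 3 against skin and 0 in the interaction, and control day 3 lost Arg1; the replicate number as a block between arms changed no call of the 8 genes.

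Leaving out 1 library gave 2 to 4 genes in adalimumab day 3 against skin, 0 to 1 in adalimumab day 7 against day 3, in the interaction and between arms on day 0. The difference between arms turned sign for Gch1 on day 0 (-1.75 to 0.39 over single omissions, 0.24 in voom) and Nos2 on day 3 (-0.76 to 2.46, -0.48 in voom), for Arg2 and Ass1 on day 0 without both hair-rich libraries (-1.44 and -0.056) and for the Gch1 interaction in voom (-0.12). The log2 ratio of Arg1 to Nos2 between arms ran from -0.32 to 0.59 on day 0 and from 1.18 to 2.07 over the wound days, where 9 of the 17 single omissions lifted the exact p above 0.05. The r of Arg1 with Acod1 turned to -0.18 on deviations from group means. Low counts limit Acod1 in skin, Ifng and Il13.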
